A study of Mus musculus with 9 samples.

Results

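The genes described here are 33 genes of programmed cell death: the Bcl2 family, the caspases with the apoptosome, the inhibitors of apoptosis, the death receptors and p53 with its partners. The rule names the genes and uses no measured value, but the genes were chosen with earlier results of these data known. Of the 33, 30 had a probe set that the annotation assigns to a single gene symbol, and 73 probe sets measured these 30 genes, among 45037 probe sets for 18193 genes in all. Bax, Trp53 and Bnip3l had no such probe set and were not analysed here. For a gene with several probe sets, the one brightest on average over the 9 arrays stands for it. Values and overlaps given for a gene are those of that probe set unless another is named, and its other probe sets can differ.

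Forelimb buds of mouse embryos at E10.5 were dissociated and sorted for the GFP of a Pax3 allele, and total RNA was amplified in a two-cycle protocol and hybridised to Affymetrix arrays, 3 per group. PAX3-FKHR GFP+ cells came from Pax3PAX3-FKHR/GFP embryos, which carry a GFP coding sequence at one Pax3 allele and, at the other, a conditional PAX3-FKHR-IRESnlacZ allele recombined by PGK-Cre, a transgene active in all tissues. Such embryos have no unmodified Pax3 allele, and PAX3-FKHR, in which the DNA binding part of PAX3 is joined to the activation domain of FKHR, acts as a gain of function form. Control GFP+ cells came from Pax3GFP/+ embryos, which keep an intact Pax3 allele, so both GFP+ groups share the Pax3GFP allele. Whether the control embryos also carried PGK-Cre is not given in the sources used here. GFP- cells came from the same limb region, and the labels give no genotype for them. The study describes the comparison of GFP+ with GFP- cells as made within Pax3GFP/+ embryos, while its array methods list Pax3+/+ as the remaining group, so the genotype is not settled here. Cells were pooled from many embryos, so the spread between replicates is a spread between pools. All values are log2 values made by RMA.

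A cell that receives a death signal from within makes or activates BH3-only proteins such as Noxa, Puma and Bim, which bind and neutralise the guardians Bcl2, Bcl-xL and Mcl1. The effectors Bak and Bax are then free to open the outer mitochondrial membrane. Cytochrome c leaves the mitochondrion and joins Apaf1 to form the apoptosome, which activates caspase 9, while Diablo displaces the inhibitors of apoptosis. Signals from outside run through death receptors, the adaptor Fadd and caspase 8, with Cflar as a brake, and Bid connects this route to the mitochondrion. In embryos without Pax3, muscle progenitors of the hypaxial somite do not leave it for the limb, and they later die.

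Pax3, of which PAX3-FKHR GFP+ cells have no unmodified allele, separated the 3 groups. It stood at 7.15, 6.83 and 7.33 in PAX3-FKHR GFP+ cells, 9.92, 8.94 and 10.22 in control GFP+ cells, and 5.17, 5.14 and 4.77 in GFP- cells, on a probe set whose place in the transcript was not checked. All 6 of 6 measured muscle progenitor markers were higher in both GFP+ groups than in GFP- cells, and limb mesenchyme markers were lower in 7 of 8 in PAX3-FKHR GFP+ cells and in 6 of 8 in control GFP+ cells. The mean of the muscle progenitor list ran from 1.09 to 1.27 above its mean over all arrays in PAX3-FKHR GFP+ cells and from 1.48 to 1.54 in control GFP+ cells, with -2.88 to -2.43 in GFP- cells, and the part of such differences in cell type in the comparisons with GFP- cells was not tested. Control GFP+ replicate 3 stood apart: it lay farthest from its group mean of all 9 arrays for 12 of the 30 genes, and its array weight in limma was 0.236, the lowest of the 9 arrays, whose weights ran up to 2.69. GFP- replicate 3 had Actc1, the cardiac actin of early muscle, at 9.03, with 4.79 and 5.18 on the other GFP- arrays. Of the 6 muscle differentiation markers 4 were highest on GFP- replicate 3 among the GFP- arrays, and of the 6 progenitor markers 3. Without Actc1 the differentiation list had means of -2.18, -2.50 and -2.13 on the GFP- arrays, so that replicate 3 stood apart in Actc1 more than in the rest of the list. The erythroid marker list also varied within GFP- cells, with list means of -1.31, 2.08 and 2.98.

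Between PAX3-FKHR GFP+ and control GFP+ cells the largest differences lay in the BH3-only genes Pmaip1 (3.02) and Bnip3 (0.66), both higher with PAX3-FKHR and neither past the test. In the limma fit none of the 30 genes was called higher and none lower, a call being a Benjamini-Hochberg adjusted p under 0.05 with a log2 fold change of 0.5 or more in either direction. Over all genes 0.61% were called higher and 0.203% lower in this comparison. At an unadjusted p under 0.05, 5 of the 30 passed, namely Pmaip1, Bid, Bnip3, Casp8 and Tnfrsf1a, as did 8.37% of all genes. The local pooled error test called 1 higher, Pmaip1, and none lower, where it called 0.797% of all genes higher and 0.297% lower. The fold change was above 0 for 17 genes and below 0 for 13, with a median of 0.01 beside -0.03 over all genes. In 3 genes (Pmaip1, Bcl2l11 and Bnip3, all BH3-only) every PAX3-FKHR GFP+ array lay above every control GFP+ array, a pattern shown by 5.42% of all genes. In 6 genes (Bid, Bok, Casp6, Casp8, Fadd and Tnfrsf1a) every PAX3-FKHR GFP+ array lay below, as it did in 8.88% of all genes.

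**Figure D1:**
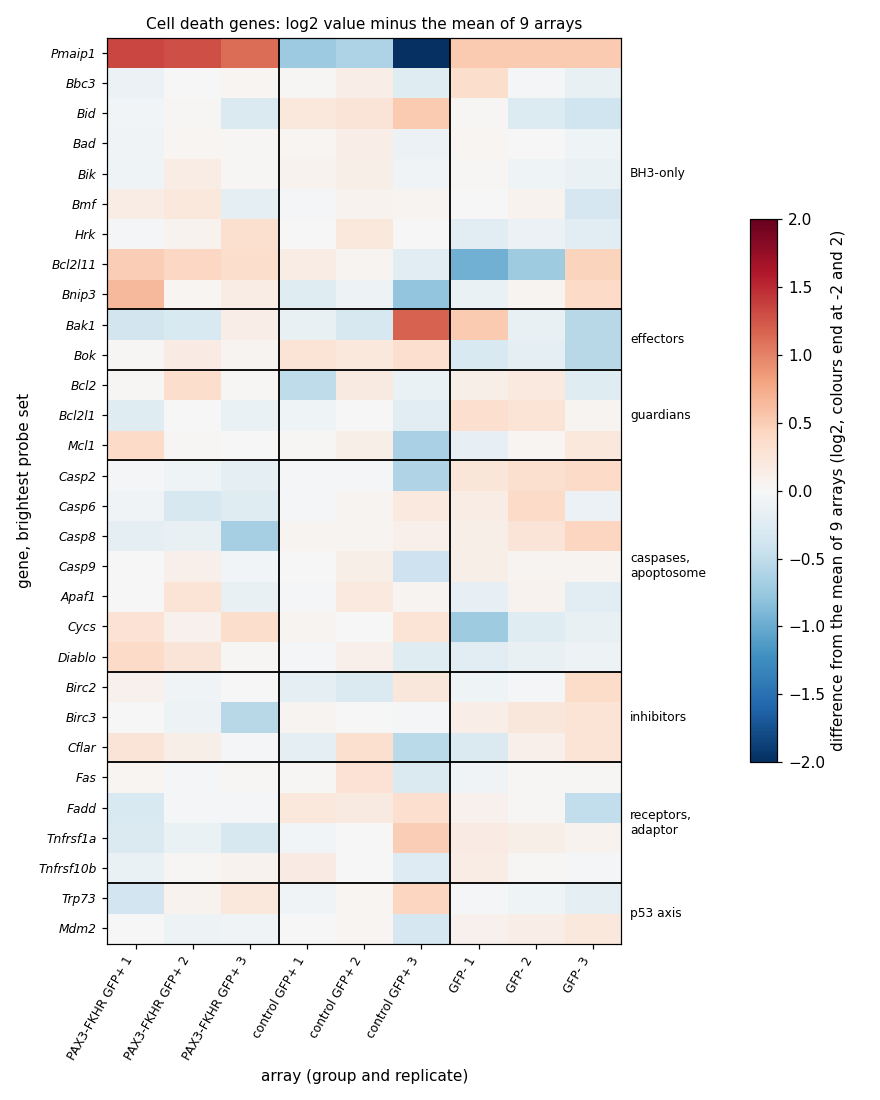
Log2 value of each of the 30 measured cell death genes (rows, grouped by class) on each of the 9 arrays (columns: PAX3-FKHR GFP+, control GFP+, GFP-), as the difference from the gene's mean over 9 arrays; the colours end at -2 and 2. The strongest row is Pmaip1, high on the 3 PAX3-FKHR GFP+ arrays and lowest on control GFP+ replicate 3, and most other cells are pale.

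Set against GFP- cells, each GFP+ group had a single gene called. In control GFP+ cells Bok was called higher and no gene lower, where 2.79% of all genes were called higher and 1.93% lower. In PAX3-FKHR GFP+ cells Cycs was called higher and no gene lower, where 3.9% of all genes were called higher and 2.79% lower. In control GFP+ cells 5 genes lay above every GFP- array (17.2% of all genes) and 6 below (6.96% of all genes), and in PAX3-FKHR GFP+ cells 5 lay above (17.8%) and 6 below (10.1%). Unadjusted, 11 of the 30 passed p under 0.05 in PAX3-FKHR GFP+ cells, as did 19.2% of all genes, and 6 in control GFP+ cells, as did 19.5% of all genes. The local pooled error test called 2 of the 30 higher and none lower in PAX3-FKHR GFP+ cells, where it called 3.92% of all genes higher and 3.16% lower. In control GFP+ cells it called none higher and 1 lower, where it called 2.27% of all genes higher and 1.84% lower. The 3 comparisons share arrays, so their values are given side by side and not set against each other. In sorted pools, fewer cells of a kind and less RNA per cell cannot be told apart.

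**Figure D2:**
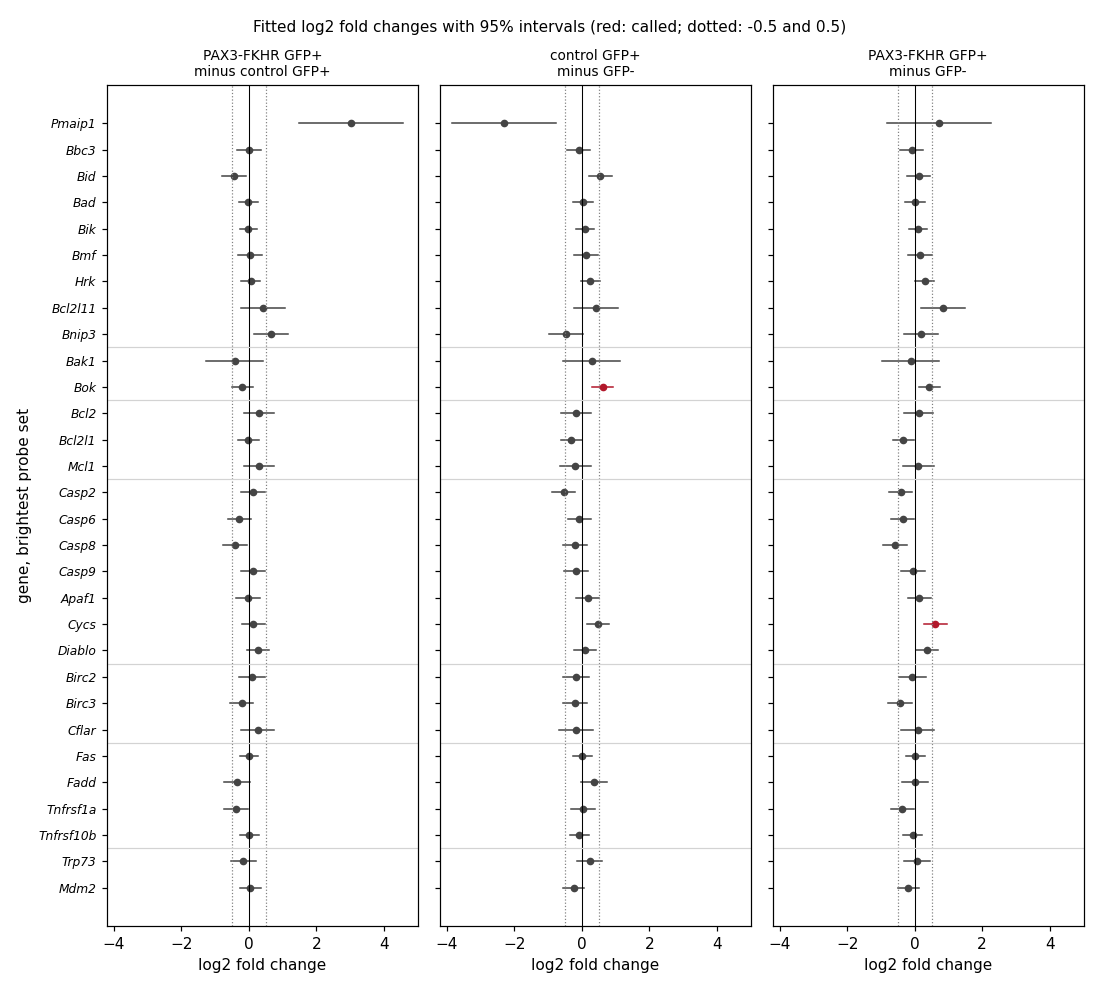
Fitted log2 fold change (points) with 95% interval (lines) of the 30 genes in the 3 comparisons, from 1 limma fit; red marks a called gene and dotted lines stand at -0.5 and 0.5. Only Bok in control GFP+ minus GFP- and Cycs in PAX3-FKHR GFP+ minus GFP- are red, and the interval of Pmaip1 is the widest.

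Among the BH3-only genes, Pmaip1, which encodes Noxa, an antagonist of Mcl1 and a p53 target, had the largest difference of the 30. Its values were 9.89, 9.84 and 9.66 in PAX3-FKHR GFP+ cells, 7.82, 7.94 and 4.59 in control GFP+ cells, and 9.07 on each GFP- array. The 3 groups do not overlap: PAX3-FKHR GFP+ arrays are highest, GFP- arrays lie between, and control GFP+ arrays are lowest, with replicate 3 far under the other two. PAX3-FKHR GFP+ cells stood 3.02 above control GFP+ cells on the log2 scale (SE 0.69, 95% interval 1.47 to 4.56, 8.08-fold), and limma's adjusted p was 0.140. Control GFP+ cells stood at -2.29 relative to GFP- cells (SE 0.69, adjusted p = 0.0844), and PAX3-FKHR GFP+ cells at 0.72 relative to GFP- cells (SE 0.69, adjusted p = 0.626). The SE is pooled over the 3 groups and so holds the spread of the control GFP+ arrays too. With only the 6 arrays of the last comparison fitted, its SE was 0.11 and Pmaip1 was called higher in PAX3-FKHR GFP+ cells (adjusted p = 0.0081). The GFP- arrays, with the same value on each, had an SD of 0.0000 and brought no spread of their own to this SE. That p therefore does not measure a spread between GFP- pools.

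How Pmaip1 was called depended on the test and on control GFP+ replicate 3. Without that array the difference between PAX3-FKHR GFP+ and control GFP+ cells was 1.92 with an adjusted p of 3.60e-04, and that between control GFP+ and GFP- cells was -1.19 with an adjusted p of 0.0011, both past the threshold. The pooled SE of both included the GFP- arrays, which had no spread. Pmaip1 also passed, higher in PAX3-FKHR GFP+ than in control GFP+ cells, with array weights (2.15, adjusted p = 0.0160) and with a block for the replicate number on those 6 arrays (3.02, adjusted p = 0.0451), but not when all 9 arrays were blocked in this way (adjusted p = 0.113). In the local pooled error test, which compares medians, this difference was 2.01 and passed with replicate 3 kept (adjusted p = 1.42e-10). Taken pair by pair of the same replicate number, the difference was 2.07, 1.90 and 5.08. A single probe set measures the gene. Its value was the same to 4 decimals on the 3 GFP- arrays, which was also so for 231 probe sets (0.513%) of that group and for 344 (0.764%) in PAX3-FKHR GFP+ and 189 (0.42%) in control GFP+ cells. Pmaip1 was the only one of the 30 genes with such a repeated value in any group.

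**Figure D3:**
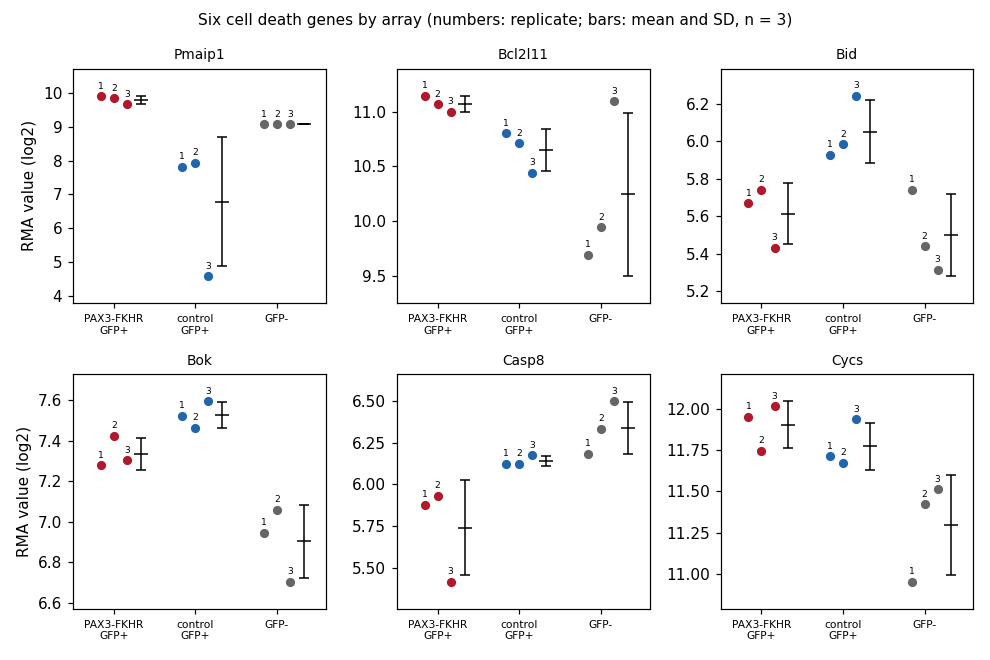
RMA log2 values of Pmaip1, Bcl2l11, Bid, Bok, Casp8 and Cycs on every array, numbered by replicate, with the group mean and SD (n = 3) beside the points; each panel has its own axis. Control GFP+ replicate 3 stands alone at 4.59 for Pmaip1, and GFP- replicate 3 stands among the GFP+ arrays at 11.10 for Bcl2l11.

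Bnip3, a BH3-only protein of the outer mitochondrial membrane that is induced by low oxygen and also serves mitophagy, had 10.01, 9.40 and 9.52 in PAX3-FKHR GFP+ cells, 9.12, 9.27 and 8.57 in control GFP+ cells, and 9.24, 9.41 and 9.75 in GFP- cells. The PAX3-FKHR GFP+ arrays lay above the control GFP+ arrays, by 0.13 at the nearest same-numbered pair and 0.95 at the widest, while GFP- arrays overlapped both. The fitted difference between PAX3-FKHR GFP+ and control GFP+ cells was 0.66 (SE 0.23, 95% interval 0.15 to 1.16) with an adjusted p of 0.509.

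Bcl2l11 encodes Bim, which binds all of the guardians. The values of this gene on each array, chosen for display after they were seen, were 11.15, 11.07 and 11.00 in PAX3-FKHR GFP+ cells, 10.80, 10.71 and 10.44 in control GFP+ cells, and 9.69, 9.94 and 11.10 in GFP- cells. GFP- replicate 3 lay with the PAX3-FKHR GFP+ arrays, and the other GFP- arrays lay under every GFP+ array. PAX3-FKHR GFP+ cells stood 0.83 above GFP- cells (SE 0.29, adjusted p = 0.134) and control GFP+ cells 0.41 above them (SE 0.29, adjusted p = 0.449). Without GFP- replicate 3 both were called, at 1.26 (adjusted p = 0.0014) and 0.83 (adjusted p = 0.0152). The part of the Actc1 and erythroid transcripts of that array in this value was not tested. PAX3-FKHR GFP+ cells stood 0.42 above control GFP+ cells (adjusted p = 0.807).

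The 4 further probe sets of Bcl2l11 differed on GFP- replicate 3. On 1456006_at it read 6.38, among the GFP+ arrays, while the other GFP- arrays read 5.74 and 6.02, under all of them, and on 1435449_at it read 6.26, again among the GFP+ arrays, while the others read 5.93 and 5.75, under all of them. The probe set 1435448_at did not share this and read 8.56, 8.60 and 8.50 in PAX3-FKHR GFP+ cells, 8.68, 8.65 and 8.73 in control GFP+ cells, and 8.07, 8.23 and 8.07 in GFP- cells, so that all GFP- arrays lay below all GFP+ arrays. On it control GFP+ cells were called 0.57 higher than GFP- cells (SE 0.12, adjusted p = 0.0224), PAX3-FKHR GFP+ cells stood at 0.43 relative to GFP- cells (adjusted p = 0.0613), and PAX3-FKHR GFP+ cells at -0.13 relative to control GFP+ cells (adjusted p = 0.841). On 1426334_a_at the highest value was that of control GFP+ replicate 3, at 5.45, and no comparison was called on it or on 1456006_at and 1435449_at.

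Bid, which caspase 8 cleaves to carry the receptor signal to the mitochondrion, had group means of 5.61 ± 0.16 in PAX3-FKHR GFP+ cells, 6.05 ± 0.17 in control GFP+ cells and 5.50 ± 0.22 in GFP- cells (SD, n = 3 each). Control GFP+ arrays lay above all others, by 0.55 relative to GFP- cells (SE 0.16, adjusted p = 0.0663), and PAX3-FKHR GFP+ cells stood at -0.44 relative to control GFP+ cells (SE 0.16, adjusted p = 0.541). The dimmer Bid probe sets did not share this, and their control GFP+ arrays overlapped the others. Control GFP+ cells stood 0.21 above GFP- cells on 1448560_at and 0.07 on 1447873_x_at. PAX3-FKHR GFP+ cells stood at 0.00 and -0.07 relative to control GFP+ cells there. Hrk, a BH3-only gene known best from neurons, lay above every GFP- array in both GFP+ groups, at 0.30 in PAX3-FKHR GFP+ cells (adjusted p = 0.216) and 0.25 in control GFP+ cells (adjusted p = 0.285). On the dimmer Hrk probe set, 1450366_at, GFP+ and GFP- arrays overlapped. There PAX3-FKHR GFP+ cells stood 0.07 and control GFP+ cells 0.09 above GFP- cells. Neuron markers stood higher in the GFP+ groups too, with 4 of 6 called in PAX3-FKHR GFP+ and 3 of 6 in control GFP+ cells and list means from 0.11 to 1.07 on PAX3-FKHR GFP+ arrays, 0.38 to 0.64 on control GFP+ arrays and -1.05 to -1.02 on GFP- arrays, and their part in the Hrk value was not tested. Bbc3, which encodes the p53 target Puma, read between 4.93 and 5.53 on all 9 arrays, with a difference of 0.00 between PAX3-FKHR GFP+ and control GFP+ cells (95% interval -0.34 to 0.35). Bad, Bik and Bmf had differences from -0.02 to 0.02 in that comparison, and on their brightest probe sets their arrays overlapped in all 3 comparisons. On the Bik probe set 1449836_x_at all GFP- arrays lay below all GFP+ arrays. There PAX3-FKHR GFP+ cells stood 0.47 above GFP- cells (adjusted p = 0.0793) and control GFP+ cells 0.45 (adjusted p = 0.0985). On 1420362_a_at the GFP- arrays lay below the control GFP+ arrays only, which stood 0.52 above GFP- cells (adjusted p = 0.132).

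Averaged over the 9 BH3-only genes, the difference from the mean of all arrays was 0.25, 0.25 and 0.17 on PAX3-FKHR GFP+ arrays, -0.06, 0.03 and -0.54 on control GFP+ arrays, and -0.04, -0.07 and 0.00 on GFP- arrays. That order rested on Pmaip1. Without it the average of the other 8 was 0.11, 0.12 and 0.05 on PAX3-FKHR GFP+ arrays, 0.03, 0.11 and -0.11 on control GFP+ arrays, and -0.11, -0.14 and -0.07 on GFP- arrays, so that the 2 GFP+ groups overlapped.

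**Figure D4:**
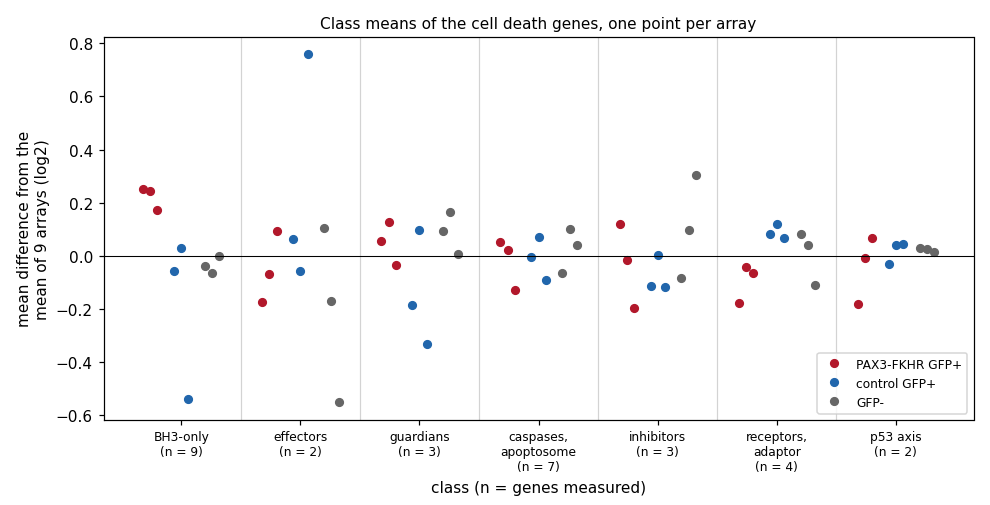
Mean difference from the mean of 9 arrays (log2) over the genes of each class, with 1 point per array and the number of measured genes under each class name. The BH3-only class separates the PAX3-FKHR GFP+ arrays (0.17 to 0.25) from the others, and control GFP+ replicate 3 is the most distant point in the BH3-only and effector classes.

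Of the effectors, Bok, a Bak and Bax relative that can permeabilise mitochondria without BH3-only activation, had 7.28, 7.42 and 7.30 in PAX3-FKHR GFP+ cells, 7.52, 7.46 and 7.59 in control GFP+ cells, and 6.95, 7.06 and 6.70 in GFP- cells. The groups do not overlap, with control GFP+ arrays highest and GFP- arrays lowest. Control GFP+ cells were 0.62 higher than GFP- cells (SE 0.14, 1.54-fold, adjusted p = 0.0258), and PAX3-FKHR GFP+ cells stood 0.43 above GFP- cells (SE 0.14, adjusted p = 0.0986). The call in control GFP+ cells depended on the arrays and the test: it was lost without control GFP+ replicate 1 (adjusted p = 0.0697) or 2 (0.0621) and without GFP- replicate 1 (0.0666) or 3 (0.0780), and with the replicate block on those 6 arrays (0.154). It was also lost with only those 6 arrays fitted (adjusted p = 0.0737) and in the local pooled error test (adjusted p = 0.578). PAX3-FKHR GFP+ cells stood at -0.19 relative to control GFP+ cells (SE 0.14, adjusted p = 0.807).

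Bak1, the effector that Mcl1 and Bcl-xL hold in check, overlapped between all groups on its brightest probe set. It read 4.81 to 5.31 in PAX3-FKHR GFP+ cells, 4.86 to 6.35 in control GFP+ cells and 4.63 to 5.69 in GFP- cells, the top value of control GFP+ cells being that of replicate 3. The difference between PAX3-FKHR GFP+ and control GFP+ cells was -0.42 (SE 0.38, adjusted p = 0.839).

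The guardians Bcl2, Bcl2l1 and Mcl1 had no call on their brightest probe sets. Bcl2l1, which encodes Bcl-xL, lay below every GFP- array in both GFP+ groups, with means of 8.23 ± 0.13 in PAX3-FKHR GFP+ cells, 8.25 ± 0.10 in control GFP+ cells and 8.57 ± 0.15 in GFP- cells (SD, n = 3 each). The difference from GFP- cells was -0.34 in PAX3-FKHR GFP+ cells (SE 0.14, adjusted p = 0.205) and -0.32 in control GFP+ cells (SE 0.14, adjusted p = 0.221), and the GFP+ groups differed by -0.02 (95% interval -0.33 to 0.29). The other Bcl2l1 probe sets overlapped between GFP+ and GFP- arrays. Relative to GFP- cells, PAX3-FKHR GFP+ and control GFP+ cells stood at -0.19 and -0.07 on 1420887_a_at. They stood at 0.11 and 0.31 on 1426191_a_at and at 0.11 and 0.03 on 1426050_at. Mcl1, the short-lived guardian that Noxa binds, read 10.56 to 10.94 in PAX3-FKHR GFP+ cells, 9.91 to 10.69 in control GFP+ cells and 10.40 to 10.77 in GFP- cells, the lowest value being control GFP+ replicate 3. The Mcl1 probe sets disagreed. That replicate was the highest array on 1437527_x_at (10.54), 1456243_x_at (10.30), 1416880_at (9.53) and 1456381_x_at (9.52). On these, control GFP+ cells stood 0.43, 0.35, 0.24 and 0.44 above GFP- cells, uncalled. The difference was 0.02 on 1416881_at and -0.19 on the brightest, 1448503_at.

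The 5 probe sets of Bcl2 disagreed. The brightest, 1457687_at, stood at -0.17 in control GFP+ relative to GFP- cells (adjusted p = 0.644) and 0.11 in PAX3-FKHR GFP+ relative to GFP- cells (adjusted p = 0.813). On 1443837_x_at the values were 3.23, 3.12 and 3.32 in PAX3-FKHR GFP+ cells, 3.42, 3.56 and 3.55 in control GFP+ cells, and 5.08, 4.62 and 4.17 in GFP- cells, and both GFP+ groups were called lower than GFP- cells, PAX3-FKHR GFP+ cells at -1.40 (SE 0.18, adjusted p = 0.0014) and control GFP+ cells at -1.11 (SE 0.18, adjusted p = 0.0065). On 1440770_at control GFP+ cells were called lower at -1.22 (SE 0.30, adjusted p = 0.0359), and PAX3-FKHR GFP+ cells stood at -0.98 (adjusted p = 0.0793). The other 3 Bcl2 probe sets had no call, and none of the 5 was called between PAX3-FKHR GFP+ and control GFP+ cells. With its 5 probe sets averaged in place of the brightest, Bcl2 was called lower in control GFP+ cells (-0.54 relative to GFP- cells, adjusted p = 0.0150).

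**Figure D5:**
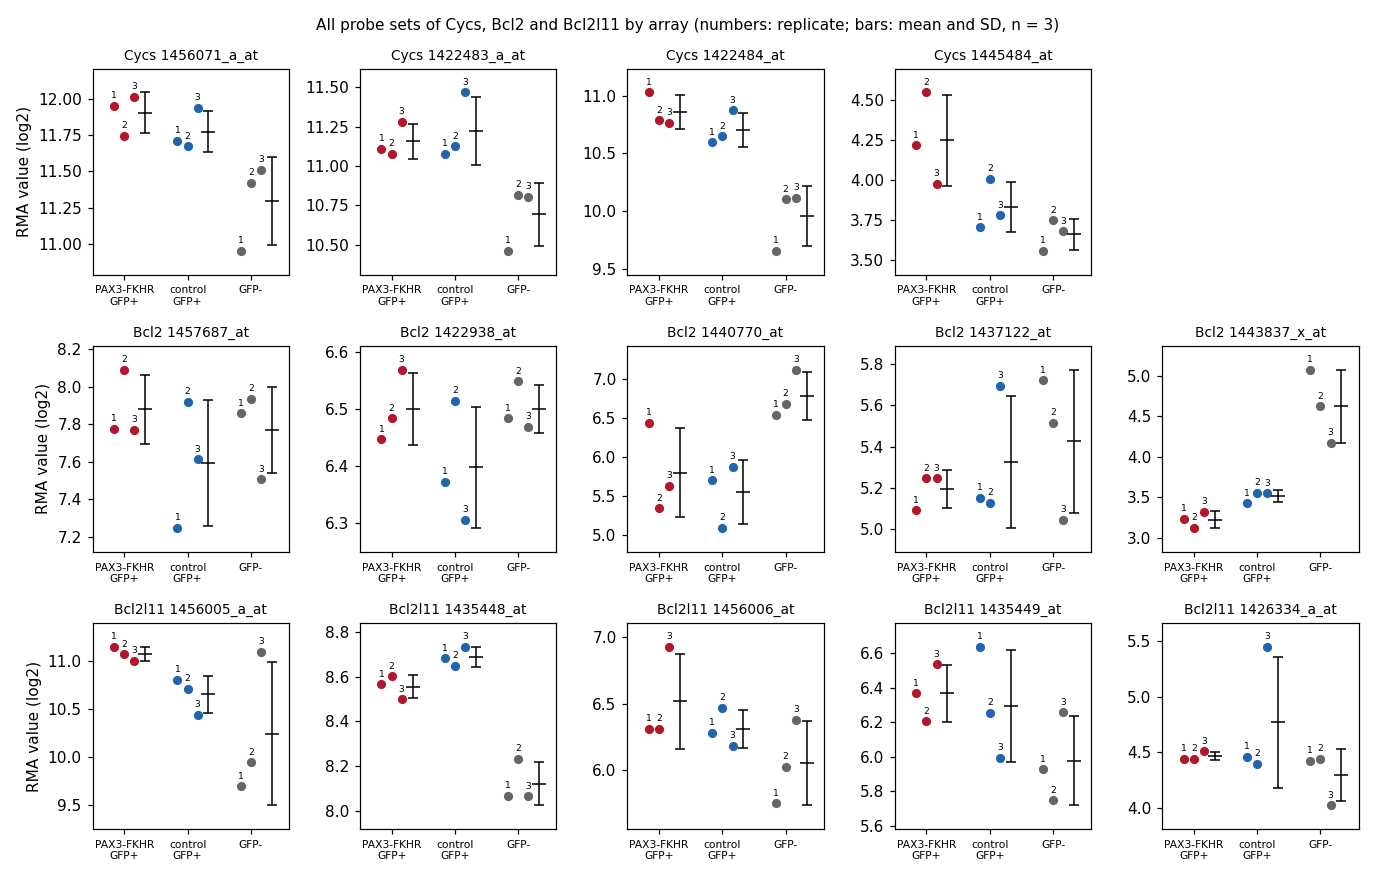
RMA log2 values on every array (numbered by replicate, with group mean and SD, n = 3) for the 4 probe sets of Cycs, the 5 of Bcl2 and the 5 of Bcl2l11, from the brightest on the left; each panel has its own axis. GFP- arrays lie below both GFP+ groups on all 4 Cycs probe sets except where 1445484_at overlaps control GFP+ cells, and above them on 1440770_at and 1443837_x_at of Bcl2 only.

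Cycs, which encodes cytochrome c, the respiratory electron carrier that triggers the apoptosome, was the gene with the most called probe sets. The brightest, 1456071_a_at, read 11.95, 11.75 and 12.01 in PAX3-FKHR GFP+ cells, 11.71, 11.67 and 11.94 in control GFP+ cells, and 10.95, 11.42 and 11.51 in GFP- cells. All GFP+ arrays lay above all GFP- arrays, and the 2 GFP+ groups overlapped. PAX3-FKHR GFP+ cells were 0.61 higher than GFP- cells (SE 0.15, 1.53-fold, adjusted p = 0.0373), control GFP+ cells stood 0.48 above GFP- cells (SE 0.15, adjusted p = 0.0958), and the GFP+ groups differed by 0.13 (95% interval -0.21 to 0.47).

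The PAX3-FKHR GFP+ call of that Cycs probe set was lost when any of the 3 PAX3-FKHR GFP+ arrays or GFP- replicate 1 or 2 was left out, with adjusted p from 0.0633 to 0.125, and was kept without GFP- replicate 3. The replicate block on those 6 arrays gave an adjusted p of 0.0794, and the local pooled error test one of 0.104. On 1422484_at PAX3-FKHR GFP+ cells were called 0.90 higher than GFP- cells (SE 0.15, adjusted p = 0.0054) and control GFP+ cells 0.75 higher (SE 0.15, adjusted p = 0.0169). On the dim 1445484_at PAX3-FKHR GFP+ cells were called 0.59 higher than GFP- cells (SE 0.14, adjusted p = 0.0358), and 1422483_a_at had no call, at 0.46 in PAX3-FKHR GFP+ cells (adjusted p = 0.0832) and 0.53 in control GFP+ cells (adjusted p = 0.0548).

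The promoters of the 2 genes called on their brightest probe set are shown because both genes stood higher in GFP+ cells. They are RefSeq sequences of GRCm38.p6, from 250 bases before the annotated start of transcription, read along the strand of the gene, at chr6:50566520-50566819 on the minus strand for Cycs and chr1:93685325-93685624 on the plus strand for Bok. Capitals mark 4 motifs searched on both strands, none of which overlap here: TGACGTCA, the cAMP response element, GCATGCGC, a core of the nuclear respiratory factor motif, CCAAT, and GGGCGG, the GC box.
Cycs: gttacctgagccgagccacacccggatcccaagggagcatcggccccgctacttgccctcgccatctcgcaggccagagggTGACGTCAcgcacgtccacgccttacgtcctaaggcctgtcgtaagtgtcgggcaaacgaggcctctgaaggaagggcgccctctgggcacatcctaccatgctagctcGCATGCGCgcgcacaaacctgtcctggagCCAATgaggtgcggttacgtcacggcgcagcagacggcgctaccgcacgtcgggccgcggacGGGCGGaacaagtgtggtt
Bok: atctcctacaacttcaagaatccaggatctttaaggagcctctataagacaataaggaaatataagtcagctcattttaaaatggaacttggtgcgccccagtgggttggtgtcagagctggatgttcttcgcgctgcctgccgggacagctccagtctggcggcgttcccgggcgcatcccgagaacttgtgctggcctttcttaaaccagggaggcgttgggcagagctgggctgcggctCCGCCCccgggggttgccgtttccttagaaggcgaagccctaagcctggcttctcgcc
The Cycs window held TGACGTCA at -169, GCATGCGC at -60, CCAAT at -31 and GGGCGG at 32, and the Bok window held only GGGCGG, on the minus strand at -8. Of 32851 promoters of this length, 1.79% held TGACGTCA, 2.71% GCATGCGC, 37.4% CCAAT and 35.7% GGGCGG. These matches are letters in a window and no evidence of binding.

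Among the caspases, Casp8, the initiator of the receptor route, is given array by array although it was picked after its values were seen. It read 5.88, 5.93 and 5.42 in PAX3-FKHR GFP+ cells, 6.12, 6.12 and 6.18 in control GFP+ cells, and 6.18, 6.34 and 6.50 in GFP- cells. The groups stand in that order with no overlap, and PAX3-FKHR GFP+ replicate 3 is the lowest array. PAX3-FKHR GFP+ cells stood at -0.60 relative to GFP- cells (SE 0.16, adjusted p = 0.0515) and at -0.40 relative to control GFP+ cells (SE 0.16, adjusted p = 0.632), and control GFP+ cells at -0.20 relative to GFP- cells (SE 0.16, adjusted p = 0.504). The first of these was just outside the threshold, and whether it passed depended on the setting. It passed with the dim probe sets filtered out (adjusted p = 0.0371) and with array weights (-0.56, adjusted p = 0.0284). It also passed without the intensity trend (0.0401) and with the mean of all probe sets (0.0292). Casp8 has a single probe set, so that mean left its value at -0.60 and is no check across probe sets. It failed in all 6 fits that each lacked an array, with adjusted p values between 0.0762 and 0.153. With the replicate block it failed too, both on all 9 arrays (0.0805) and on the PAX3-FKHR GFP+ and GFP- arrays alone (0.142).

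Casp2, a caspase of the p53 and DNA damage response, lay below every GFP- array in both GFP+ groups, with means of 9.94 ± 0.07 in PAX3-FKHR GFP+ cells, 9.82 ± 0.33 in control GFP+ cells and 10.36 ± 0.07 in GFP- cells (SD, n = 3 each). The difference from GFP- cells was -0.42 in PAX3-FKHR GFP+ cells (SE 0.16, adjusted p = 0.162) and -0.54 in control GFP+ cells (SE 0.16, adjusted p = 0.0762). Casp6, an executioner caspase, stood at -0.28 in PAX3-FKHR GFP+ relative to control GFP+ cells (SE 0.15, adjusted p = 0.761). Its second probe set, 1458715_at, read 5.95, 5.36 and 5.67 in PAX3-FKHR GFP+ cells, 5.91, 5.43 and 6.45 in control GFP+ cells and 6.66, 6.46 and 6.79 in GFP- cells, and was called lower in PAX3-FKHR GFP+ than in GFP- cells (-0.98, SE 0.25, adjusted p = 0.0394). Casp9 and Apaf1, the caspase and the scaffold of the apoptosome, had differences of 0.12 and -0.03 between PAX3-FKHR GFP+ and control GFP+ cells. On their brightest probe sets the arrays overlapped in all 3 comparisons.

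Diablo, which displaces the inhibitors of apoptosis from caspases, lay above every GFP- array in PAX3-FKHR GFP+ cells, at 8.82 ± 0.19 there, 8.54 ± 0.17 in control GFP+ cells and 8.44 ± 0.06 in GFP- cells (SD, n = 3 each). The difference between PAX3-FKHR GFP+ and GFP- cells was 0.38 (SE 0.15, adjusted p = 0.175). On the dimmer Diablo probe set, 1425768_at, it was -0.11 (adjusted p = 0.773) with overlapping arrays. Of the inhibitors, Birc3, which encodes cIAP2, lay below every GFP- array in both GFP+ groups, at -0.43 in PAX3-FKHR GFP+ cells (SE 0.16, adjusted p = 0.153) and -0.21 in control GFP+ cells (SE 0.16, adjusted p = 0.472). On the dimmer Birc3 probe set, 1425223_at, these values were -0.07 and -0.03, with overlapping arrays. Birc2, which encodes cIAP1, and Cflar, the catalytically inactive relative of caspase 8, overlapped in all 3 comparisons on the brightest probe set. Their differences between PAX3-FKHR GFP+ and control GFP+ cells were 0.10 and 0.26.

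At the receptors, Tnfrsf1a, which encodes the main TNF receptor, had means of 8.94 ± 0.10 in PAX3-FKHR GFP+ cells, 9.33 ± 0.30 in control GFP+ cells and 9.30 ± 0.05 in GFP- cells (SD, n = 3 each). PAX3-FKHR GFP+ arrays lay below all other arrays, at -0.39 relative to control GFP+ cells (SE 0.16, adjusted p = 0.633) and -0.36 relative to GFP- cells (SE 0.16, adjusted p = 0.233). Fadd, the adaptor that brings caspase 8 to the receptors, had means of 6.42 ± 0.16 in PAX3-FKHR GFP+ cells, 6.79 ± 0.08 in control GFP+ cells and 6.41 ± 0.31 in GFP- cells (SD, n = 3 each), and control GFP+ arrays lay above all others. PAX3-FKHR GFP+ cells stood at -0.37 relative to control GFP+ cells (adjusted p = 0.723), and control GFP+ cells at 0.37 relative to GFP- cells (adjusted p = 0.242). On the dimmer Fadd probe set, 1446499_at, these values were -0.02 and 0.15, with overlapping arrays. Fas read between 2.85 and 3.43 on the 9 arrays, under the lower quartile of all probe sets on each, and Tnfrsf10b, the mouse TRAIL receptor, lay under the median of all probe sets on each. No detection calls were used here, so low values are given as low and not as absent.

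Mdm2, the ubiquitin ligase that holds p53 down and is itself a p53 target, lay below every GFP- array in both GFP+ groups, at -0.19 in PAX3-FKHR GFP+ cells (SE 0.14, adjusted p = 0.509) and -0.24 in control GFP+ cells (SE 0.14, adjusted p = 0.363), and the GFP+ groups differed by 0.04 (95% interval -0.27 to 0.36). Its dimmer probe sets overlapped, with PAX3-FKHR GFP+ and control GFP+ cells at 0.04 and 0.20 relative to GFP- cells on 1427718_a_at. The values were 0.07 and 0.05 on 1457929_at. Trp73, a p53 relative, lay under the median of all probe sets on the 9 arrays and overlapped in all 3 comparisons.

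The wider cell death machinery was read from a further list. Of 29 measured among 32 other apoptosis genes, none was called between PAX3-FKHR GFP+ and control GFP+ cells (2 at an unadjusted p under 0.05), with a median of -0.11 beside -0.03 over all genes. Ripk3, the kinase of necroptosis, was the only call against GFP- cells: it averaged 7.13 ± 0.10 in PAX3-FKHR GFP+ cells, 7.73 ± 0.24 in control GFP+ cells and 7.09 ± 0.12 in GFP- cells (SD, n = 3 each), and the control GFP+ arrays lay above all others. It was 0.63 higher in control GFP+ than in GFP- cells (SE 0.16, adjusted p = 0.0388) and stood at -0.60 in PAX3-FKHR GFP+ relative to control GFP+ cells (SE 0.16, adjusted p = 0.220).

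Of 20 measured among 22 other p53 target genes, none was called between PAX3-FKHR GFP+ and control GFP+ cells (3 at an unadjusted p under 0.05). PAX3-FKHR GFP+ cells had 3 called higher and none lower than in GFP- cells, and control GFP+ cells 4 higher and 1 lower, with medians of 0.25 and 0.11 beside 0.05 and 0.08 over all genes. Cdkn1a, the cell cycle inhibitor p21, which also rises as muscle cells leave the cycle, was 2.44 higher in PAX3-FKHR GFP+ than in GFP- cells (adjusted p = 1.22e-04) and 2.82 higher in control GFP+ than in GFP- cells (adjusted p = 9.37e-05). Plk2, a stress-induced kinase, was 2.56 higher in PAX3-FKHR GFP+ cells (adjusted p = 0.0034) and 1.89 higher in control GFP+ cells (adjusted p = 0.0190), and Tigar, which damps glycolysis, 0.71 higher (adjusted p = 0.0357) and 0.82 higher (adjusted p = 0.0214). Ephx1, an epoxide hydrolase, passed the test in control GFP+ cells, 1.26 above GFP- cells (adjusted p = 0.0020), and stood at 0.51 in PAX3-FKHR GFP+ cells (adjusted p = 0.103). Perp, a p53 target of epithelial junctions, was called lower in control GFP+ cells (-2.17, adjusted p = 0.0359) and stood at -1.81 in PAX3-FKHR GFP+ cells (adjusted p = 0.0679). Limb ectoderm markers moved alongside Perp: 8 of 8 stood below 0 in control GFP+ and 7 of 8 in PAX3-FKHR GFP+ cells relative to GFP- cells, with a list mean between -0.49 and 0.05 on PAX3-FKHR GFP+ arrays, -0.78 and -0.23 on control GFP+ arrays and 0.07 and 1.31 on GFP- arrays, and their part in the value was not tested.

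Pmaip1 and Bnip3 also belong to wider stress programmes. Of 12 integrated stress response genes 1 was called between PAX3-FKHR GFP+ and control GFP+ cells, Vldlr, a lipoprotein and reelin receptor, at 7.84, 7.99 and 7.86 in PAX3-FKHR GFP+ cells, 6.75, 6.72 and 6.85 in control GFP+ cells, and 5.59, 5.75 and 6.18 in GFP- cells. The difference between PAX3-FKHR GFP+ and control GFP+ cells was 1.13 (SE 0.16, adjusted p = 0.0146), while 9 of the 12 stood below 0 and the median was -0.08 beside -0.03 over all genes. Relative to GFP- cells Vldlr was also higher in PAX3-FKHR GFP+ cells (2.06, adjusted p = 5.38e-05) and control GFP+ cells (0.93, adjusted p = 0.0088), and Ppp1r15a, a phosphatase subunit that ends the response, was lower in PAX3-FKHR GFP+ cells (-0.70, adjusted p = 0.0358).

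Of 12 hypoxia response genes 1 was called between PAX3-FKHR GFP+ and control GFP+ cells, and 9 stood above 0, with a median of 0.15 beside -0.03 over all genes. The call was Egln3, a prolyl hydroxylase of the oxygen sensor, which read 8.42, 8.86 and 8.69 in PAX3-FKHR GFP+ cells, 7.52 on each control GFP+ array, and 5.36, 5.10 and 5.22 in GFP- cells. It was 1.14 higher in PAX3-FKHR GFP+ than in control GFP+ cells (SE 0.15, adjusted p = 0.0082), 3.43 higher in PAX3-FKHR GFP+ than in GFP- cells (adjusted p = 1.96e-06) and 2.29 higher in control GFP+ than in GFP- cells (adjusted p = 2.92e-05). Egln3, like Pmaip1, had the same value on all arrays of a group. Its control GFP+ arrays had an SD of 0.0000 and brought no spread of their own to the pooled SE. The p values of the comparisons with control GFP+ cells therefore do not measure a spread between control GFP+ pools.

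Muscle differentiation markers moved with the PAX3-FKHR comparison. All 6 of 6 stood above 0 in PAX3-FKHR GFP+ relative to control GFP+ cells and 1 was called, and the list mean ran between 1.19 and 1.79 on PAX3-FKHR GFP+ arrays, 0.13 and 1.10 on control GFP+ arrays and -2.70 and -1.75 on GFP- arrays, lowest among the control GFP+ arrays on replicate 3. Their part in the cell death genes was not tested.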

How the data were processed

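RNA of sorted forelimb cells was measured on 9 Affymetrix arrays. The authors made log2 values per probe set with RMA (background correction, a common intensity distribution over arrays, summary over probes), deposited unfiltered for a total of 45037 probe sets after 64 array controls were set aside here. The RMA version is not given in the sources used here. No filter on absent calls, such as the study applied, was repeated here. Of the probe sets 34945 map to 1 symbol, 932 to several and 9160 to none, and a gene is its probe set with the highest mean.

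All arrays were fitted together in limma 3.58.1 under R 4.3.3, using an intensity trend, and 3 contrasts were taken, with Benjamini-Hochberg adjustment over all probe sets. A call needs an adjusted p under 0.05 and a change of 0.5 on the log2 scale (1.414-fold). A local pooled error test, as in the study, was written anew with 100 bins and a spline of 10 degrees of freedom. The scripts were tested on simulated data. The number of arrays limits precision, and replicates are pools of embryos.

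The 33 genes and the gene lists were chosen with earlier results of these data known. Genes called in a comparison, and genes whose PAX3-FKHR GFP+ and control GFP+ arrays do not overlap with means 0.5 or more apart, are given array by array, and of other lists the called genes, up to 4 per list and comparison. Replicate numbers come from sample titles. After group means were removed, same-numbered PAX3-FKHR GFP+ and control GFP+ arrays correlated by 0.164, 0.472 and 0.287, so the number pairs these arrays, and it was tried as a block. No such pairing was seen for GFP- arrays. Alternatives covered scaling, trend, array weights, thresholds, filters, the probe set rule and leaving out each array. Promoter sequences come from RefSeq tables of GRCm38.p6.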

Additional observations from a re-analysis of the deposited data

How the results depend on the processing

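No gene of the 30 that was called turned its direction under any alternative run, and of 1642 values of genes called neither in the reported fit nor in the alternative 105 changed sign, none of them over 0.42 in size. Between PAX3-FKHR GFP+ and control GFP+ cells the count called higher was 1 (Pmaip1) with array weights, with the replicate block on the 6 arrays compared (adjusted p = 0.0451) and with the local pooled error test, which compares medians, and 0 to 1 on leaving out an array, against 0 reported. The count called lower was 0 on leaving out any array. Between control GFP+ and GFP- cells the count higher was 2 (Bid and Bok) with arrays quantile normalized again, and 0 with the replicate block on those 6 arrays, with only those 6 arrays fitted, with the local pooled error test and at a log2 fold change of 1, against 1 reported, and 0 to 1 on leaving out an array. The count lower was 1 with array weights (Pmaip1), with the local pooled error test (Pmaip1) and with the mean of all probe sets (Bcl2), against 0 reported, and 0 to 1 on leaving out an array. Between PAX3-FKHR GFP+ and GFP- cells the count higher was 2 with array weights (Bcl2l11 and Cycs) and with the local pooled error test (Pmaip1 and Bcl2l11), 0 at a log2 fold change of 1 and 0 to 2 on leaving out an array, against 1 reported. The count lower was 1 (Casp8) without the intensity trend, with array weights and with dim probe sets filtered, and 2 (Casp6 and Casp8) with the mean of all probe sets, against 0 reported. Casp8 has a single probe set, so its own value was unchanged by that mean. Pmaip1 was called higher in PAX3-FKHR GFP+ than in GFP- cells on only those 6 arrays (adjusted p = 0.0081) and with the replicate block on them (adjusted p = 0.0397), where Cycs was not (adjusted p = 0.0524 and 0.0794), so these counts kept their size with other genes. The GFP- values of Pmaip1 were the same on each array and had no spread. The replicate block changed no other call of the 30. The causes were not tested. The filter on dim probe sets, which kept 27 of the 30 genes, left out Fas, Tnfrsf10b and Trp73.

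Over all genes the counts called higher and lower were 111 and 37 between PAX3-FKHR GFP+ and control GFP+ cells, 202 and 91 with array weights, 54 and 17 on only the 6 arrays, and 149 and 66 with the mean of all probe sets. With the replicate block on the 6 arrays they were 166 and 61. Between control GFP+ and GFP- cells they were 507 and 351, with 741 and 572 under array weights, 261 and 168 with the block on 6 arrays and 266 and 186 at a log2 fold change of 1. Between PAX3-FKHR GFP+ and GFP- cells they were 710 and 508, with 968 and 821 under array weights and 398 and 236 at a log2 fold change of 1.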
